A study of Mus musculus with 9 samples.

Results

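CXC chemokines are small secreted proteins that draw leukocytes along a gradient and act through G protein-coupled receptors. Their transcripts were read here in macrophages of mouse visceral fat with and without Nucb2. The 8 genes described are Cxcl1, Cxcl2, Cxcl3, Cxcl9, Cxcl10, Cxcl12, Cxcl16 and Pf4. They were taken by symbol from a table of 14905 genes, and all 8 were in it. RNA was sequenced from cells positive for both F4/80 and CD11b, sorted from visceral adipose tissue of C57BL/6 mice. There were 5 libraries from Nucb2-/- mice (KO) and 4 from wild-type mice (WT). By its title, the series concerns insulin sensitivity in obese mice. Age, sex, diet and the way the Nucb2 allele was made are not given in the labels; the name of the deposited table, which holds all 9 libraries, carries the letters HFD without spelling them out. The product of Nucb2, nucleobindin-2, binds calcium and is also the precursor of the peptide nesfatin-1.

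CXC ligands fall into groups by receptor and by what induces them. Cxcl1, Cxcl2 and Cxcl3 bind the receptor Cxcr2, which neutrophils carry, and macrophages make them when NF-kB is activated by toll-like receptors, interleukin-1 or tumour necrosis factor. Cxcl9 and Cxcl10 bind Cxcr3 on activated T cells and natural killer cells and are induced by interferons. Cxcl12 is a largely constitutive stromal ligand of Cxcr4 and Ackr3, Cxcl16 is made as a membrane protein and binds Cxcr6, and Pf4, platelet factor 4, is stored in platelet granules and is also transcribed by some tissue macrophages. The messenger RNAs of the Cxcr2 ligands carry AU-rich elements in their 3′ untranslated regions, which set how fast they decay.

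Among the 8 transcripts, Cxcl1 was higher in KO, by 1.57-fold (fitted value; 95% interval 1.35 to 1.81), and it was the only member past the threshold. Its close neighbour Cxcl2, at a like level, had a fitted fold of 1.05 (interval 0.94 to 1.18). Cxcl9 and Cxcl16 had lower means in KO and did not pass. The threshold was an adjusted p of 0.05 in limma with Benjamini-Hochberg adjustment over all 14905 genes. Of all genes tested 0.309% passed, and 0.181% passed as higher in KO. Of the 8 members, 3 had an unadjusted p under 0.05, against 9.14% of all genes, and 1 had KO and WT ranges that did not overlap, against 3.15%. The median log2 difference was 0.0033 over the members and 0.02 over all genes, with 4 members above 0 and 4 below.

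Sequencing depth fell into a deeper class of 6 libraries (KO replicates 1 to 4 with WT replicates 1 and 2; 74937721 to 85200105 reads) and a shallower class of 3 (KO replicate 5 with WT replicates 3 and 4; 51148955 to 55004978 reads). Nothing in the labels ties a library to a mouse of its own, so the p-values cover the spread between libraries, part of which may be technical. Nucb2 itself checked the labels, with 1500 ± 219 normalized counts in KO against 4313 ± 791 in WT (SD, n = 5 and 4), no overlap and a limma adjusted p of 0.00054. Macrophage markers were present as labelled, with all 12 of the list, Adgre1 and Itgam included, in the table. Their summed levels were 1550110 to 1734700 in KO and 1597630 to 1789430 in WT. Lyz2 was the largest part of these sums, at 809546 ± 58683 in KO and 825447 ± 48939 in WT. Of the 12, 5 were above 0 and 7 below, and C1qa had the smallest p (log2 difference -0.50, limma adjusted p = 0.067). The ribosomal repeat Rn45s took 1.84% to 2.16% of the KO reads and 2.64% to 3.54% of the WT reads, and its part in the chemokine values was not tested. In bulk RNA, more cells of a type and more RNA per cell cannot be told apart.

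**Figure D1:**
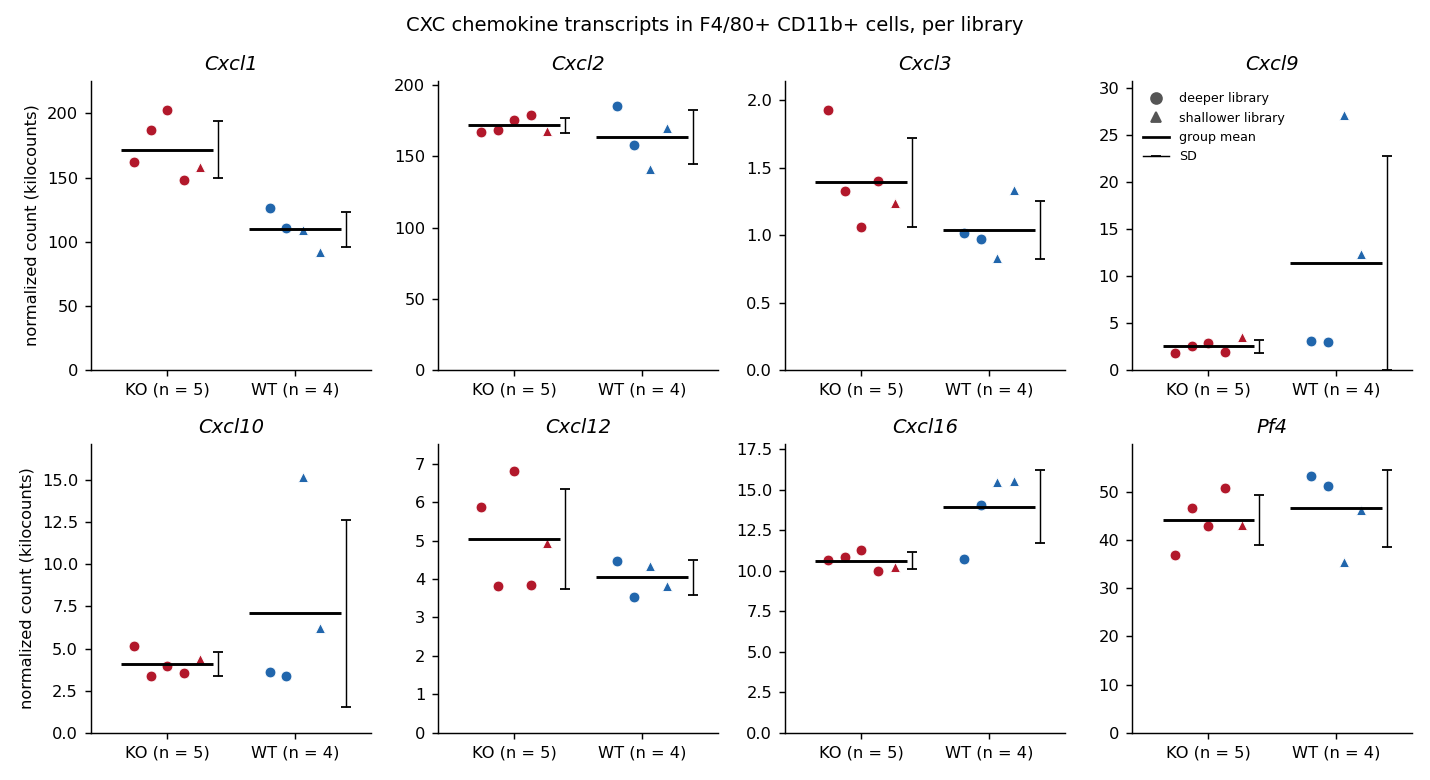
Normalized count, scaled to kilocounts on the vertical axis (from 0), of each CXC chemokine in the 5 KO and 4 WT libraries. Each point is 1 library (circles, deeper; triangles, shallower), the bar is the group mean and the whisker its SD. The KO and WT points of Cxcl1 do not overlap, and WT replicates 3 and 4 hold the 2 highest values of Cxcl9 and Cxcl10.

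Divided by the length of the principal transcript, the 8 chemokines spanned a wide range of levels. Cxcl2 and Cxcl1 ranked 23 and 24 by mean among 14366 genes with a length. Cxcl2 had 154746 ± 4882 normalized counts per kilobase in KO against 147440 ± 16990 in WT (SD, n = 5 and 4). Cxcl1 had 180256 ± 23581 in KO and 115020 ± 14594 in WT. Cxcl2 lay above Cxcl1 per kilobase in 4 of 4 WT libraries and in 1 of 5 KO libraries, and the ranges of this pair overlapped in each group. Pf4 was next (rank 69), with 74953 ± 8756 per kilobase in KO and 79184 ± 13566 in WT, and its ranges lay below those of Cxcl1 and above those of Cxcl10 in both groups.

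The other 5 members were lower. Per kilobase, Cxcl10 had 3747 ± 644 in KO and 6493 ± 5070 in WT (rank 1018), and Cxcl16 had 3931 ± 193 in KO and 5170 ± 832 in WT (rank 1112), so this pair overlapped in both groups. Cxcl9 followed with 889 ± 236 in KO and 3945 ± 3935 in WT (rank 1880). Cxcl12 had 1613 ± 414 in KO and 1290 ± 142 in WT (rank 2555), and Cxcl3 had 1369 ± 321 in KO and 1021 ± 210 in WT (rank 2857). In KO, Cxcl9 was below Cxcl12 in 5 of 5 libraries, while in WT it was above it in 2 of 4, and this difference in order was not tested. Cxcl12 and Cxcl3 overlapped in both groups. Of the summed levels per kilobase of the 8 members, Cxcl1 made up 42.7% ± 3.5 in KO and 32.0% ± 2.8 in WT. Cxcl2 made up 36.8% ± 2.0 in KO and 41.0% ± 2.6 in WT.

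Cxcl1 encodes the ligand also called KC, a main neutrophil attractant of the mouse. Its normalized counts in KO replicates 1 to 5 were 162314, 186935, 202944, 148300 and 158429. In WT replicates 1 to 4 they were 126318, 110930, 108889 and 92321. Every KO library lay above every WT library. The means were 171784 ± 22472 (SD, n = 5) and 109615 ± 13908 (SD, n = 4). On the scale of log2 of the normalized count plus 1, the difference was 0.65 (SE 0.10, 95% interval 0.43 to 0.86; limma, adjusted p = 0.0096). The exact permutation p, two-sided, was 0.0159, the lowest value open to the 126 ways of splitting 5 and 4 libraries. The library with the fewest Cxcl1 reads held 67681, which gives a counting error of 0.38%, against coefficients of variation of 13.1% among KO and 12.7% among WT libraries.

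The higher level of Cxcl1 in KO was seen at either depth, with a log2 difference of 0.55 in the deeper libraries and 0.66 in the shallower ones. The deeper libraries alone did not pass the limma threshold (adjusted p = 0.456). Leaving out any 1 library gave differences of 0.57 to 0.72, but the call held only without WT replicate 1 (adjusted p = 0.039). Without any other single library, KO or WT, it was lost (adjusted p up to 0.145).

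Cxcl2, or MIP-2, is the other abundant Cxcr2 ligand of macrophages. Its normalized counts in KO replicates 1 to 5 were 167262, 168380, 175731, 179043 and 167650. In WT replicates 1 to 4 they were 185534, 157592, 141048 and 169870. The KO libraries lay close together, inside the range of the WT libraries. The coefficient of variation was 3.15% in KO and 11.5% in WT. Between the groups the log2 difference was 0.08 (95% interval -0.08 to 0.23; limma, adjusted p = 0.80), so the interval excludes a difference of the size seen for Cxcl1.

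Cxcl3 encodes a further Cxcr2 ligand and was far less abundant than Cxcl1 and Cxcl2. Its normalized counts in KO replicates 1 to 5 were 1928, 1328, 1060, 1403 and 1235, and in WT replicates 1 to 4 they were 1013, 971, 830 and 1335. The groups overlapped, with KO replicates 1 and 4 above every WT library. The log2 difference was 0.41 (95% interval -0.05 to 0.88; limma, adjusted p = 0.60). The interval holds both 0 and the difference of Cxcl1.

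Because Cxcl1 and Cxcl2 lie beside each other and share inducers, their ratio within a library tests whether they differed unequally. The ratio of normalized counts of Cxcl1 to Cxcl2 was 1.002 ± 0.132 in KO (0.83 to 1.15; SD, n = 5) and 0.68 ± 0.10 in WT (0.54 to 0.77; SD, n = 4), with no overlap. The difference of the log2 ratio was 0.57 (exact two-sided permutation p = 0.0159; 0.0238 after Benjamini-Hochberg adjustment over 3 ratios), with 0.54 in the deeper and 0.54 in the shallower libraries. The deeper libraries alone allow no p under 0.133. The ratio of Cxcl1 to Cxcl3 was 130 ± 41 in KO and 110 ± 28 in WT (exact permutation p = 0.444), and a difference between those genes was not detectable. The ratio of Cxcl1 to Cxcl2 was computed with their values already known.

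**Figure D2:**
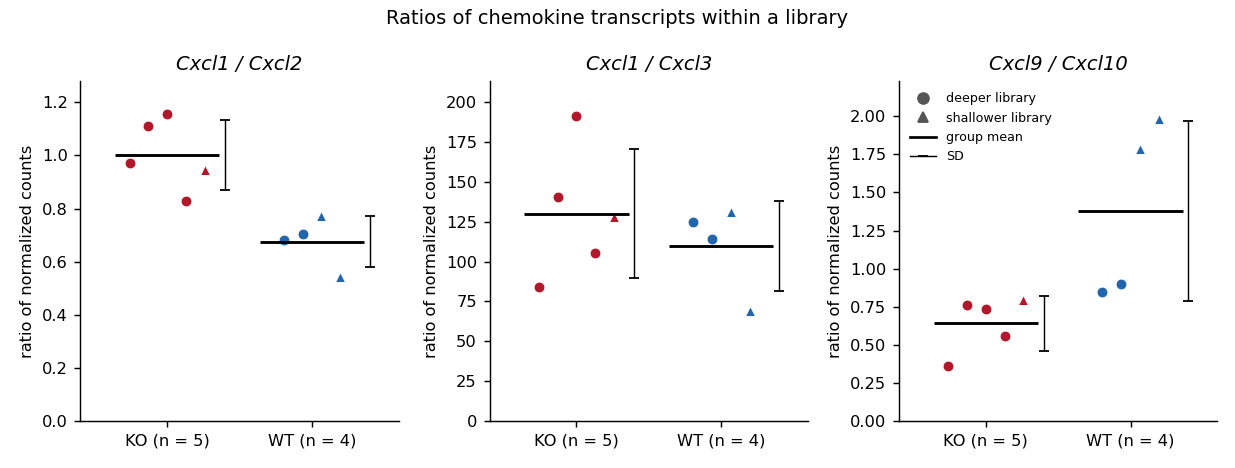
Ratio of normalized counts of 2 chemokines in the same library (vertical axes, from 0) for the 5 KO and 4 WT libraries; circles are deeper and triangles shallower libraries, bars are means and whiskers SD. The groups do not overlap for Cxcl1 to Cxcl2 or for Cxcl9 to Cxcl10, and they do for Cxcl1 to Cxcl3.

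The Cxcr2 ligand genes sit together on the plus strand of mouse chromosome 5 (mm10), at 90891241 to 90893115 for Cxcl1, 90903871 to 90905938 for Cxcl2 and 90786103 to 90789600 for Cxcl3. Each has 4 exons in its principal transcript. Pf4, Cxcl3, Cxcl1, Cxcl2, Cxcl9 and Cxcl10 follow in that order along 1.58 Mb, so the single member past the threshold lies between members that did not pass. The bases from 110 to 29 before the RefSeq start (build GRCm38.p6, plus strand) are shown for the 3 genes because they carry a shared letter pattern, with matches to GGAANTTCC, the core of an NF-kB element, in capitals. The windows are chr5:90891135-90891216, chr5:90903789-90903870 and chr5:90785991-90786072.
Cxcl1: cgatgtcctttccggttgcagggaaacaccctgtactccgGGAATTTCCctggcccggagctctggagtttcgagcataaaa
Cxcl2: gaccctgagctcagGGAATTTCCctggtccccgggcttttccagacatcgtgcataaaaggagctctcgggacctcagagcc
Cxcl3: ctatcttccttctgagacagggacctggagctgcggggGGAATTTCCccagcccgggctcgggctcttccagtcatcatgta

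The match lies 70 to 62 bases before the start in Cxcl1, 96 to 88 in Cxcl2 and 72 to 64 in Cxcl3. GGAANTTCC reads the same on both strands and was found in 0.813% of 32851 RefSeq windows of 250 bases before a start. With a flanking base on each side, all 3 genes hold the same 11 letters, GGGAATTTCCC, which 14 of the 32851 windows contain (0.0426%). Cxcl1, which differed between the groups, and Cxcl2, with an interval around 0, have the same letters at this place. CATAAA or its complement, a form of the TATA box, was found in the windows of Cxcl1, Cxcl2 and Cxcl9 (10.8% of all windows) and TATAAA or its complement in those of Cxcl3 and Cxcl9 (12.4%). No matches of different patterns overlapped within the members' windows. A match is a description of letters, not a measured binding site.

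The 3′ untranslated regions were searched for the AU-rich heptamer TATTTAT, the site of the decay factor tristetraprolin. There were 6 matches, overlaps counted, in 592 bases of Cxcl1, 7 in 734 bases of Cxcl2 and 2 in 645 bases of Cxcl3. The other 5 members had 0. Of 13372 genes with such a region, 28.2% held at least 1 match and 0.613% held at least 5. The 30 bases with most matches are shown for the abundant pair, and a single match for Cxcl3 with the bases before it (GENCODE transcripts, heptamers in capitals).
Cxcl1: agggtccTATTTATTTATgTATTTATTTAT
Cxcl2: actTATTTATTTATctatgTATTTATTTAT
Cxcl3: aactatacaagattatcagttgtTATTTAT

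Of 24 genes that lead to Cxcr2 ligand transcription (interleukin-1, tumour necrosis factor and toll-like receptors, NF-kB subunits and inhibitors, AP-1 and C/EBP factors), 0 passed the threshold, with 14 above 0 and 10 below and a median log2 difference of 0.05. The AP-1 subunits had the smallest p. Normalized counts of Jun were 4785 ± 565 in KO against 3072 ± 724 in WT (log2 difference 0.66; limma, adjusted p = 0.089), and Fos had 82839 ± 12648 and 57087 ± 11218 (0.54, adjusted p = 0.089). The list's summed level did not overlap, at 288059 to 315009 in KO and 261210 to 274988 in WT. Most of the gap between the group sums was from Fos alone, so the sums do not describe the list as a whole.

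Of 13 genes of AU-rich decay and stabilisation, 0 passed, with 7 above 0 and 6 below and a median of 0.04. Arid5a, which encodes an RNA-binding protein that stabilises inflammatory messenger RNAs, had 3908 ± 763 normalized counts in KO against 2149 ± 949 in WT (0.93; limma, adjusted p = 0.109). Zfp36, which encodes tristetraprolin, had 141360 ± 16427 and 115555 ± 5715 (0.28, adjusted p = 0.196). Neither gene passed. The list's summed level was 170767 to 212991 in KO and 157004 to 170044 in WT. Zfp36 made up most of this sum, and most of the gap between the groups.

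Marker lists were read beside Cxcl1. Genes known to be raised by tissue dissociation, Fos, Jun and Zfp36 among them, had 17 of 18 members above 0 and 0 past the threshold, with a median log2 difference of 0.29. Their summed level was 526045 to 676897 in KO and 450183 to 531500 in WT, so the groups overlapped. Of 12 fibroblast and adipocyte progenitor markers, 11 were above 0 and 0 passed. Their summed level was 527612 to 797891 in KO and 368447 to 553656 in WT, with overlap, most of it from Dcn and Gsn. On both lists the sum of KO replicate 2 lay under that of WT replicate 1. The sums of KO replicates 1, 3, 4 and 5 lay above those of every WT library on both lists. Gsn stood at 255864 ± 38891 and 183936 ± 20079 (0.47; limma, adjusted p = 0.071), and Dcn at 249667 ± 44462 and 183147 ± 43786 (0.46, adjusted p = 0.256). The part of these lists in the Cxcl1 difference was not tested.

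Neutrophils are the main cells that carry Cxcr2. Of 15 neutrophil markers 12 were in the table, Ly6g, Ngp and Camp were not in it, and 0 of the 12 passed. Of these 12, 10 were above 0 and 2 below, Cxcr2 among the latter. The summed level was 5074 to 7274 in KO and 3566 to 4800 in WT, without overlap. By group mean Csf3r was the largest part, at 2646 ± 585 in KO and 2032 ± 298 in WT, with overlapping ranges. S100a8 and S100a9 were low, at 224 ± 86 and 93 ± 60 in KO and 186 ± 84 and 53 ± 53 in WT. The gelatinase gene Mmp9 had 433 ± 117 normalized counts in KO against 112 ± 15 in WT (1.90, limma adjusted p = 0.089). Lcn2, a neutrophil granule and acute-phase protein, had 873 ± 456 and 434 ± 120 (0.92, limma adjusted p = 0.434). All 12 endothelial markers were above 0, and 2 passed. Selp, which encodes P-selectin, was 1.92 higher on the log2 scale (1532 ± 629 against 401 ± 167; limma, adjusted p = 0.020). The other was the chemokine-binding receptor Ackr1, given with the receptors. The endothelial sum was 6300 to 12678 in KO and 2826 to 5062 in WT, and its part in the Cxcl1 difference was not tested.

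Cxcl9 and Cxcl10, the interferon-induced ligands of Cxcr3, had a different pattern, set by a pair of WT libraries. Normalized counts of Cxcl9 in KO replicates 1 to 5 were 1850, 2559, 2927, 1989 and 3509. In WT replicates 1 to 4 they were 3092, 3013, 27132 and 12352. WT replicates 3 and 4 stood far above all others, while WT replicates 1 and 2 lay inside the KO range. The group means were 2567 ± 683 (SD, n = 5) and 11397 ± 11369 (SD, n = 4). The log2 difference was -1.58 (95% interval -2.64 to -0.53; unadjusted p = 0.0059, limma adjusted p = 0.256). The exact permutation p, two-sided, was 0.0635.

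The size of the Cxcl9 difference moved with the libraries used. It was -2.38 in the shallower libraries, which hold WT replicates 3 and 4, and -0.41 in the deeper ones, where both WT libraries still lay above the 4 KO libraries. Without WT replicate 3 it was -0.96. KO replicate 5, also shallower, held the highest KO value, at 3509. Depth and the 2 high WT libraries cannot be told apart within WT.

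Normalized counts of Cxcl10 in KO replicates 1 to 5 were 5142, 3375, 3993, 3582 and 4404. In WT replicates 1 to 4 they were 3641, 3355, 15196 and 6223. The same WT libraries were high, and the other 7 overlapped. The log2 difference was -0.52 (95% interval -1.22 to 0.17; limma, adjusted p = 0.668). It was -1.14 in the shallower libraries and turned to 0.18 in the deeper ones, and it was -0.06 without WT replicate 3, so no direction can be given for this gene.

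The ratio of normalized counts of Cxcl9 to Cxcl10 was 0.64 ± 0.18 in KO (0.36 to 0.80; SD, n = 5) and 1.38 ± 0.59 in WT (0.85 to 1.98; SD, n = 4). Every WT library lay above every KO library, WT replicates 1 and 2 included. The difference of the log2 ratio was -1.06 (exact two-sided permutation p = 0.0159; 0.0238 after Benjamini-Hochberg adjustment over 3 ratios), with -0.60 in the deeper and -1.24 in the shallower libraries. For this ratio, too, the genes' values were known when it was chosen.

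Cxcl9 lies at 92321347 to 92328079 and Cxcl10 at 92346638 to 92348889, both on the minus strand of chromosome 5. The bases from 225 to 144 before their RefSeq starts (GRCm38.p6, minus strand, chr5:92328223-92328304 and chr5:92349033-92349114) are shown because both hold GAAANNGAA, part of an interferon-stimulated element. Capitals mark this pattern and GGAANTTCC.
Cxcl9: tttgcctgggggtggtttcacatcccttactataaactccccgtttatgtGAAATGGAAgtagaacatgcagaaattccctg
Cxcl10: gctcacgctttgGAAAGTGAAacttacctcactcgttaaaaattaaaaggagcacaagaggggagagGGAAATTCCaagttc

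GAAANNGAA or its complement was in 7.13% of all windows and, of the 7 members with a window, in these 2 alone. It lies 175 to 167 bases before the start in Cxcl9 and 213 to 205 in Cxcl10. Cxcl10 also holds GGAANTTCC, 158 to 150 bases before its start, so 4 of the 7 members have that pattern. TTCNNNGAA, the letters of a STAT element, was in 7.02% of windows and in 0 of the 7.

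Of 17 genes of interferon signalling 16 were in the data and 0 of them passed, with 6 above 0 and 10 below and a median log2 difference of -0.09. Ifng, the gene of interferon gamma, was not in the table. Irf8, a factor of myeloid cells, had normalized counts of 2834 to 4275 in KO and 3639, 4776, 8077 and 5763 in WT replicates 1 to 4 (-0.64; limma, adjusted p = 0.228). WT replicates 3 and 4 held the highest values of Irf8, as they did of Cxcl9 and Cxcl10. T and NK cell markers, from cells that make interferon gamma, were 9 of 11 in the table, with summed levels of 481 to 1241 in KO and 745 to 1402 in WT. WT replicate 3 had the highest sum and WT replicate 4, at 759, did not stand apart.

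**Figure D3:**
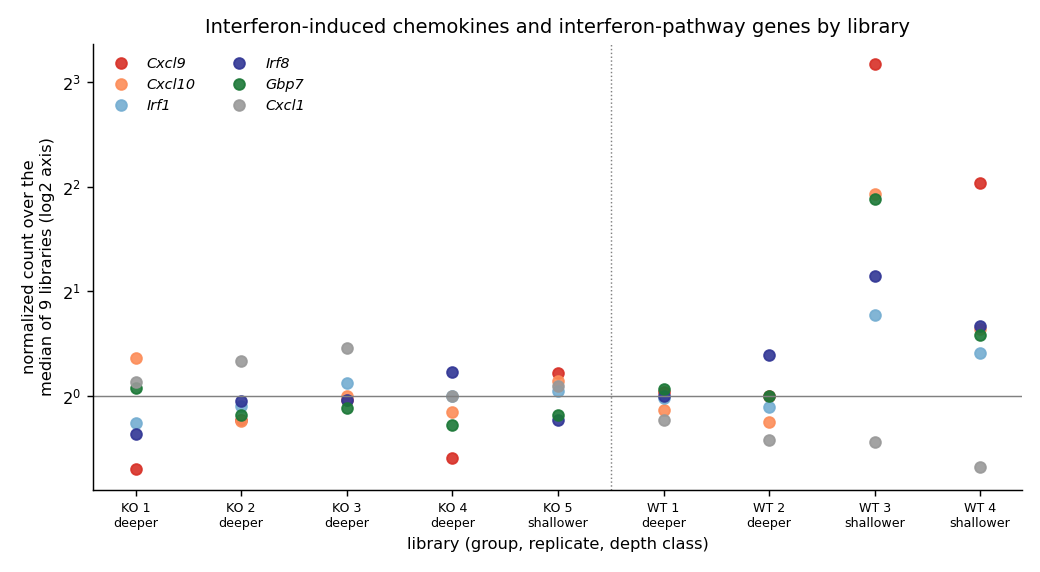
Normalized count of 6 genes in each library divided by the gene's median over the 9 libraries (log2 vertical axis), with libraries on the horizontal axis by group, replicate and depth. Cxcl9, Cxcl10, Irf1, Irf8 and Gbp7 are highest in WT replicate 3, and Cxcl1 (grey) is lowest in WT replicate 4.

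Cxcl16, Cxcl12 and Pf4 form the remaining group, of ligands known for steady expression or for roles beyond acute inflammation. Normalized counts of Cxcl16 in KO replicates 1 to 5 were 10663, 10858, 11305, 9977 and 10246, and in WT replicates 1 to 4 they were 10740, 14071, 15485 and 15519. WT replicates 2, 3 and 4 lay above every KO library, and WT replicate 1 lay among them. The means were 10610 ± 520 (SD, n = 5) and 13954 ± 2246 (SD, n = 4). The log2 difference was -0.38 (95% interval -0.61 to -0.15; unadjusted p = 0.0028, limma adjusted p = 0.189). By exact permutation (two-sided) p was 0.0476. Cxcl16 did not pass with all libraries. Without WT replicate 1 the difference was -0.50 and passed (adjusted p = 0.039). It was -0.20 in the deeper and -0.60 in the shallower libraries. It is encoded on chromosome 11, minus strand, 70453983 to 70459984.

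Cxcl12, or SDF-1, had normalized counts of 5869, 3812, 6796, 3838 and 4940 in KO replicates 1 to 5 and of 4467, 3526, 4350 and 3817 in WT replicates 1 to 4. KO replicates 1, 3 and 5 lay above every WT library, and the other KO libraries lay within the WT range. KO minus WT, the log2 difference was 0.29 (95% interval -0.06 to 0.65; limma, adjusted p = 0.633). Without KO replicate 3 it was 0.17. Stromal cells are the usual source of Cxcl12. Fibroblast and adipocyte progenitor markers summed to 567023, 527612, 637390, 592692 and 797891 in KO replicates 1 to 5, an order that does not set replicates 1, 3 and 5 apart. The summed level of mesothelial markers was 25917, 25711 and 25337 in KO replicates 1, 3 and 5 and between 3323 and 11846 in all the others. Endothelial sums were also highest there, at 9374, 8546 and 12678, against 7236 and 6300 in KO replicates 2 and 4. In WT the endothelial sums were 2826 to 5062. The part of these lists in Cxcl12 was not tested. It is encoded on chromosome 6, plus strand, 117168535 to 117181367.

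Pf4 had normalized counts of 36909, 46655, 42830, 50827 and 43140 in KO replicates 1 to 5 and of 53336, 51235, 35471 and 46199 in WT replicates 1 to 4. The lowest and the highest value were both in WT libraries. KO minus WT, the log2 difference was -0.07 (95% interval -0.31 to 0.17; limma, adjusted p = 0.88). Platelet and megakaryocyte markers were low beside it. Gp9, Gp1bb, Gp5 and Gp6 were not in the table, and the 7 markers that were summed to 313 to 868 in KO and 448 to 590 in WT, against 35471 or more for Pf4 alone. Of 12 markers of Lyve1-type resident macrophages, Fcna, the gene of ficolin A, was 1.76 higher on the log2 scale in KO (limma, adjusted p = 0.013), 11 were above 0 and the other 11 did not pass. Pf4 itself occupies chromosome 5, plus strand, 90772435 to 90773383.

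**Figure D4:**
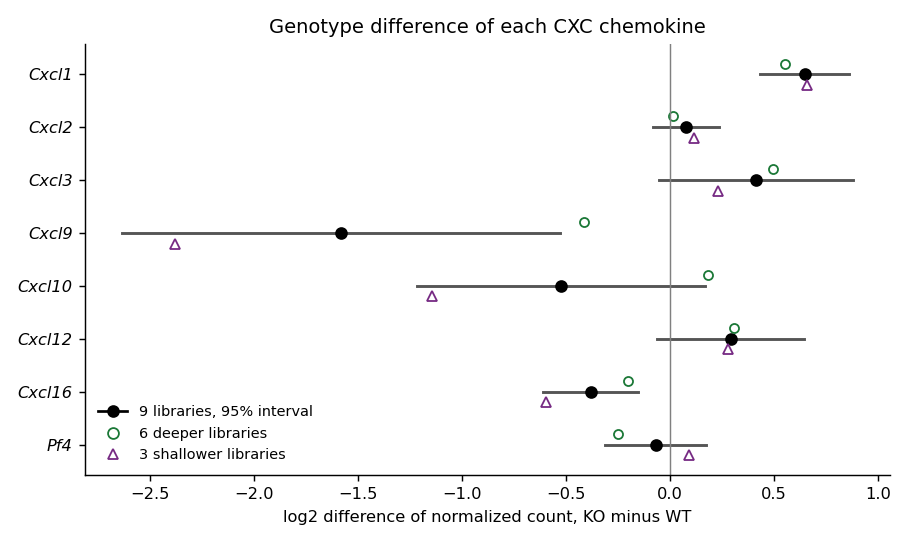
Log2 difference of normalized count, KO minus WT (horizontal axis), for each CXC chemokine: filled points with lines are the fit to 9 libraries with its 95% interval, open circles the deeper and open triangles the shallower libraries alone. The interval of Cxcl1 lies above 0, those of Cxcl9 and Cxcl16 lie below 0 without passing the adjusted threshold, and Cxcl10 changes sign with depth.

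Members did not vary together past the threshold once the group means were removed. Of 28 pairs of members over 9 libraries, 2 had an unadjusted p under 0.05 and 0 passed after Benjamini-Hochberg adjustment. For Cxcl9 and Cxcl10, Pearson's r was 0.89 (exact within-group permutation p = 0.047, adjusted p = 0.42) and Spearman's rho 0.72 (permutation p = 0.16). Pearson's r was 0.63 without WT replicates 2 and 3, and -0.46 in the 6 deeper libraries, which leave out both high WT libraries and KO replicate 5. For Cxcl10 and Pf4, r was -0.91 (exact permutation p = 0.0031, adjusted p = 0.0875) and rho -0.83 (p = 0.009, exact permutation). Here r was -0.86 without WT replicates 2 and 3 and -0.88 in the deeper libraries. The neighbours Cxcl1 and Cxcl2 had r = 0.16 (exact permutation p = 0.80, rho -0.02 with p = 0.99). The shallower libraries are too few for a value.

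The genes most like each member were ranked by Pearson's r over the 9 libraries with group means removed, among 10908 genes. This is a description over few libraries of 2 depth classes. Cxcl10 was most like Gbp7 (r = 0.98), an interferon-induced guanylate-binding protein, H2-T23 (0.98), a nonclassical class I molecule, and Zcchc8 (0.98). Gbp7 had normalized counts of 5002 to 6397 in KO and of 6362, 6081, 22461 and 9076 in WT replicates 1 to 4, highest in the libraries where Cxcl10 was highest. Cxcl9 was most like Ccdc58 (0.98), Scimp (0.97) and Fgl2 (0.96). Cxcl1 was most like Hivep3 (0.96), Wnt2 (0.92) and Tpst1 (0.89), Cxcl2 like Trf (0.98), Aplp2 (0.98) and Trappc4 (0.97), and Cxcl3 like Eif4g1 (0.96) and Ddx51 (0.93). Pf4 was most like Emp1 (0.97), Slc9a9 (0.96) and Trpv4 (0.95), Cxcl12 like Mtbp (0.98), Ppig (0.94) and Ugt1a6a (0.93), and Cxcl16 like Ikbke (0.97), Zfp26 (0.96) and Edem2 (0.96). None of these genes, the members themselves aside, passed the threshold between KO and WT.

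On the receiving side, 7 of 8 receptors were in the table (Cxcr1 was not) and 1 passed. Ackr1, a non-signalling receptor of venular endothelium and red cells that binds Cxcl1 among others, had normalized counts of 1290, 720, 681, 776 and 1525 in KO replicates 1 to 5. In WT replicates 1 to 4 they were 182, 383, 177 and 191. The groups did not overlap, and the log2 difference was 2.09 (SE 0.37; limma, adjusted p = 0.022). Its direction was that of the endothelial markers given above, among which it is itself counted, and their part was not tested.

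Cxcr4, the signalling receptor of Cxcl12, was the most abundant receptor gene in normalized counts not scaled by length, at 9557 ± 700 in KO against 8862 ± 872 in WT (0.11; limma, adjusted p = 0.774). Ackr3, the scavenger of Cxcl12, had 3114 ± 837 and 2424 ± 570 (0.35, adjusted p = 0.643). Cxcr2 had 24.8 ± 39.3 and 29.4 ± 42.9, so the receptor gene of the most abundant ligands was itself low. Cxcr3 had 90.4 ± 52.4 and 112 ± 81, Cxcr5 89.1 ± 65.0 and 39.5 ± 18.9, and Cxcr6 28.9 ± 38.6 and 128 ± 111. None of these 6 passed (limma adjusted p from 0.643 to 0.9999).

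Of 7 further CXC ligands 5 were measured and 0 of these passed; Cxcl15 and Cxcl17 were not in it. Cxcl13, the B cell attractant that acts on Cxcr5, had normalized counts of 17312, 4846, 7686, 4109 and 15265 in KO replicates 1 to 5, and of 4580, 6187, 4461 and 3909 in WT replicates 1 to 4. KO replicates 1, 3 and 5, the libraries with the highest mesothelial and endothelial sums, lay above every WT library (log2 difference 0.82, limma adjusted p = 0.482). Cxcl14 had 292 ± 93 and 258 ± 151, and the platelet gene Ppbp 184 ± 173 and 192 ± 92. Cxcl5 and Cxcl11 were at the floor of 1 in 2 or more libraries of each group, with highest values of 137 and 43.4.

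CXC ligands are cut by proteases and held by glycans after secretion. Of 20 such genes 1 passed. Mmp2, a gelatinase that cuts Cxcl12, was lower in KO, at 2925 ± 202 normalized counts against 4884 ± 1016 (-0.72, limma adjusted p = 0.048). The other gelatinase gene, Mmp9, went the other way, at 433 ± 117 against 112 ± 15 (1.90, limma adjusted p = 0.089). The other 19 did not pass, with 10 of the 20 above 0 and 10 below.

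Lists of other cell types that a sort of this kind can hold were read beside the members. Of 10 mast cell markers 4 were lower in KO past the threshold (Tpsb2, Cma1, Cpa3 and Fcer1a), with summed levels of 1946 to 3756 in KO and 6396 to 11208 in WT. Cd209a was the 1 dendritic cell marker of 10 past it, 0.91 higher in KO as a log2 difference (limma, adjusted p = 0.022). Of these 10, 5 were above 0 and 5 below. Clec9a was lower in KO, at 50 ± 32 normalized counts against 411 ± 281 (-3.49, limma adjusted p = 0.220). Of 12 macrophage, 9 mesothelial, 9 T and NK cell, 6 B cell and 7 adipocyte markers, 0 passed. B cell sums were 2118 to 2861 in KO and 1958 to 4015 in WT, and adipocyte sums 41352 to 56639 and 47461 to 66840. Dendritic cell sums were 35431 to 39286 and 35473 to 41451. Most of the adipocyte sum was Fabp4, at 44516 ± 5518 in KO and 54166 ± 9248 in WT. Most of the dendritic cell sum was Sirpa, at 22365 ± 2458 in KO and 26352 ± 1704 in WT. The part of these lists in any chemokine difference was not tested.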

How the data were processed

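Stranded libraries (dUTP) of oligo-dT selected RNA were sequenced, per the labels' protocols. Names in the submitters' processing notes are CASAVA 1.8.2, HISAT, Partek, DESeq2 and the build mm10, with no role stated; the rules of counting, like the annotation, were not given in the sources used here. Each deposited value is a normalized signal on a linear scale. The values themselves show read counts divided by a factor of the library, with 1 as the lowest value allowed. Below 200 reads, 100% of the values above that floor were whole multiples of the library's smallest step (tolerance 0.1), and the steps gave the read totals. Because of the floor, no count model was the main test.

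Differences are from limma 3.58.1 (R 4.3.3) with a mean-variance trend on log2 of the value plus 1, genotype only, Benjamini-Hochberg adjusted over 14905 genes. Intervals are 95%. Single values and ratios were tested by exact permutation in SciPy 1.17.1. Data were simulated for this comparison with 14905 genes, each with a spread set by its mean level. Genes to change were drawn from those at or above the median level. Of these, 52%, 78%, 98% and 100% were recovered at 1.5, 2, 4 and 8 fold (50 each), and 10 of 174 calls were false. These rates do not cover lower genes, or genes with a spread like that of Cxcl9 in WT. Lengths and positions are from GENCODE M21 (principal transcript), promoters from RefSeq (7 of 8 members matched), figures from matplotlib 3.10.9. The 8 members, the gene lists and the tests were chosen with earlier results of these data known. Genes named are the members, Nucb2, and the CXC ligands and receptors. Of each other list, the members past the threshold are named, or else the 2 with the smallest p. Also named are the 3 genes most like each member with a mean of at least 100. Irf1, Rn45s, Fabp4, Sirpa, Csf3r, S100a8, S100a9, Clec9a, Lyz2 and marker genes named only as present or as not in the table are outside that rule. Those were chosen after their values were seen. Some genes under this rule are not reported here.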

Additional observations from a re-analysis of the deposited data

How the results depend on the processing

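Beyond the values given beside each gene, 12 processing alternatives and 9 fits without 1 library were run. Cxcl1 kept its direction in all of them and its call in 10 of the 12 and in 1 of the 9; the exceptions among the 12 were the deeper libraries alone (0.55) and the replicate number as a block (replicate block), which drops KO replicate 5 (0.67, adjusted p = 0.264). Leave-one-out values were 0.57 to 0.72 for Cxcl1, -0.50 to -0.32 for Cxcl16 and -0.19 to 0.0013 for Pf4, where the sign turned without WT replicate 1. Cxcl10 turned to 0.18 in the deeper libraries alone. The Cxcl1 to Cxcl2 ratio was 0.54 and the Cxcl9 to Cxcl10 ratio -0.60 in the deeper libraries, too few to pass; leave-one-out values were 0.47 to 0.64 and -1.26 to -0.85, with an adjusted p of 0.0536 without any 1 WT library, where the exact permutation p of 0.0357 was the smallest possible. The 46 genes called over the table (27 higher, 19 lower) became 0 with the replicate block (1104 at an unadjusted p under 0.05), 0 in the deeper libraries (1039), 5 to 38 without 1 library and 32 with limma-voom on reads worked out from the steps (12 higher, 20 lower). Correlations past the threshold stayed at 0 of 28. The cause of these moves was not tested, apart from fewer libraries. Same-numbered libraries did not deviate together (correlations of -0.0531, 0.0898, 0.00357 and 0.0625; 2 of 4 numbers correlated best with their own), so the block rests on numbers alone. Both planned negative binomial models were not run, since the floor hides single reads in 6 libraries.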
